A study of Homo sapiens with 6 samples.

Results

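Plasminogen activators are serine proteases that cut plasminogen into plasmin, and serpins are inhibitors that trap such proteases. The 5 genes described here are PLAU (urokinase), PLAT (tissue-type activator), PLAUR (the urokinase receptor), SERPINE2 (protease nexin-1, an inhibitor of thrombin and of both activators) and SERPINB2 (an inhibitor of both activators). They were found as all probe sets that the platform annotation assigns to exactly 1 of these symbols, which gave 21 of 49293 tested probe sets. PLAU had 3 probe sets, PLAT 7, PLAUR 5 and SERPINE2 6, so that 4 of the 18244 genes compared are members. No probe set met the rule for SERPINB2, and it was not analysed here.

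Urokinase is secreted as an inactive chain, binds PLAUR, which a glycolipid anchor holds in the membrane, and activates plasminogen next to the cell. Plasmin degrades fibrin and matrix proteins and can in turn activate urokinase. Tissue-type activator works mainly on fibrin and is best known from endothelium, while urokinase and its receptor are well studied in invading carcinoma cells.

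The samples were A549 cells, an established line from a human lung adenocarcinoma, that had received a lentivirus with a short hairpin RNA (shRNA). There were 3 arrays of cells with a hairpin against TIGD1 (shTIGD1) and 3 arrays of cells with a negative control hairpin (shControl). Each group rests on 1 hairpin sequence, and all cells shared the same medium with serum and antibiotics. The labels number the arrays without naming separate cultures, so a p-value here covers spread among these 6 arrays, and that spread may be technical. Values are log2 signals from a 1-colour array, and the number of arrays limits their precision.

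The TIGD1 probe set read 6.88, 6.84 and 6.86 on the shTIGD1 arrays, against 6.96, 6.93 and 6.85 on the shControl arrays. The groups overlapped, and the log2 change of -0.056 (SE 0.042, limma adjusted p = 0.389) did not pass the test. With arrays levelled on poly-A spike controls it was 0.27 and passed as higher (limma adjusted p = 0.0121). The arrays are therefore named by their labels: shTIGD1 below means the library (array) labelled so, and each direction is that of the labels. The keratins of the line were bright, with KRT18 at 14.15 in shTIGD1 and 14.19 in shControl. Of 10 epithelial markers, 2 passed as higher, EPCAM and CDH1, beside 9.81% of all genes. Not all of the 10 were bright, and CLDN7 was at 5.86 in shTIGD1 and 5.87 in shControl. Markers of monocytes, endothelium, fibroblasts and lymphocytes (31 genes measured) had a median signal of 4.51 and a 95th percentile of 6.18. Not all were dim: CD14 was at 8.21 in both groups, and CD79A at 6.64 in shTIGD1 and 6.71 in shControl. Of the 31, 0 were higher and 2 lower at a limma adjusted p of 0.05, VSIG4 and COL3A1, beside 9.81% and 14.0% of all genes. The dim VSIG4 did not pass with the mean of its probe sets (limma adjusted p = 0.136).

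The sequence before the start of 3 members is shown: the pair of genes that fell and the receptor gene that did not pass. For PLAT, which was higher, the promoter windows used here held 0 sequences, so none is shown. Each line gives 250 bases of RefSeq sequence (GRCh38.p14), 5′ to 3′ along the gene's strand and ending just before an annotated start. Capitals mark matches, on either strand, to the motifs searched. The AP-1 motif was spelled TGANTCA, the GC box was spelled GGGCGG, the PEA3 motif was spelled AGGAAG, and the cyclic AMP element was spelled TGACGTCA. The E-box was spelled CACGTG, the box bound by NF-Y was spelled CCAAT, the box bound by TBP was spelled TATAAA, and NF-kB was searched by its consensus.
PLAU, chr10:73910882-73911131, plus strand: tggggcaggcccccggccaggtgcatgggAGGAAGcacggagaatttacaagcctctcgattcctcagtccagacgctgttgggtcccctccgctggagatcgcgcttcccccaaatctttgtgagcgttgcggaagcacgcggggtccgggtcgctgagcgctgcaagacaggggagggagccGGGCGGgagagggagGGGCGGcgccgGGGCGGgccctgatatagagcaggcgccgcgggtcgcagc
SERPINE2, chr2:224031479-224031728, minus strand: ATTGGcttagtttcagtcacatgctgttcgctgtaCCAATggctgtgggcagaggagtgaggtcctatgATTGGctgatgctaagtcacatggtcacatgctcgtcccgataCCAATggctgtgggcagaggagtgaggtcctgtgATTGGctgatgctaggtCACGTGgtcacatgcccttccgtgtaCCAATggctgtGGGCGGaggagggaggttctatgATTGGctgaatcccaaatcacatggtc
PLAUR, chr19:43670170-43670419, minus strand: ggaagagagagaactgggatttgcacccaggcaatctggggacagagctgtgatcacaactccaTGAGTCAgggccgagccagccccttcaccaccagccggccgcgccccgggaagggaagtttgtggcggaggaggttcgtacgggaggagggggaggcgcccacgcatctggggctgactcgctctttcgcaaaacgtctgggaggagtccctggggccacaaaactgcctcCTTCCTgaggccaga

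The PLAU window held 3 GC boxes, a motif in 42.6% of 35116 windows of the same length, and 1 PEA3 match, a motif in 28.7%. The SERPINE2 window held 7 CCAAT matches on alternating strands (32% of windows hold at least 1 match), 1 GC box and 1 E-box (6.34% of windows). The stretch from CCAAT to ATTGG recurs along this window with few letters changed, so the 7 matches are not independent. The PLAUR window held 1 AP-1 match, TGAGTCA, 186 to 180 bases before the start (6.57% of windows), and 1 PEA3 match. PLAU and SERPINE2 each have another annotated start, whose window, not shown, held only 1 CCAAT match for PLAU and 2 GC boxes for SERPINE2. In both genes that window (chr10:73910360-73910609 and chr2:224038641-224038890) lies upstream of the one shown. The sequences shown are thus those before the more downstream start, inside the gene's span, and are the windows with more matches. Which start the cells use was not tested. None of these windows held a match to the NF-kB consensus, found in 5.21% of windows. Matches did not overlap each other. They describe letters and are not binding sites.

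Among the members, PLAU and SERPINE2 were lower and PLAT was higher in shTIGD1, while PLAUR did not pass in its brightest probe set. So 3 of 4 genes passed the threshold (limma, adjusted p under 0.05), beside 23.8% of all genes compared (9.81% higher and 14.0% lower). Over single probe sets, 13 of 21 passed, 5 higher and 8 lower, beside 22.0% of all probe sets (11.5% higher and 10.6% lower). With arrays levelled on spiked hybridization controls 8 passed as higher and 4 as lower, and on poly-A controls 12 and 0. Of all 49293 probe sets, 20727 passed as higher and 1116 as lower on hybridization controls, and 34597 and 197 on poly-A controls. The groups did not overlap in any of the 4 genes, 1 higher and 3 lower, beside 42.3% of all genes, 16.9% higher and 25.5% lower. Nor did they in 20 of the 21 probe sets, beside 40.9% of all probe sets. Probe sets of 1 gene share their target, so these counts are not independent.

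**Figure D1:**
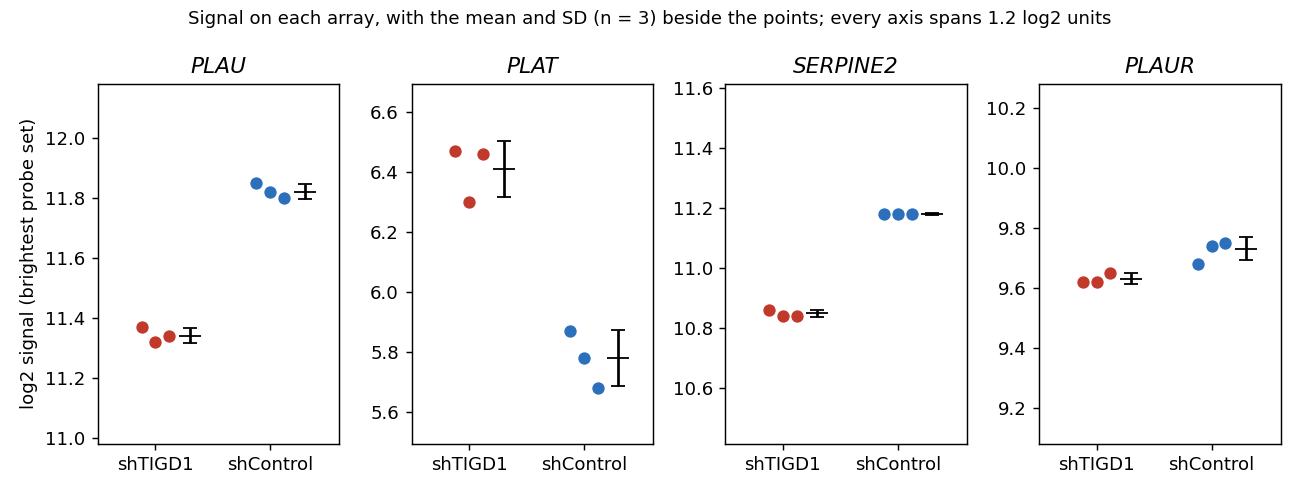
Log2 signal of the brightest probe set of PLAU, PLAT, SERPINE2 and PLAUR on each of the 3 shTIGD1 and 3 shControl arrays, with the mean and SD. PLAU and SERPINE2 sit lower in shTIGD1 and PLAT sits 0.63 higher, while the PLAUR groups lie close together.

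PLAU, the gene of urokinase (chr10:73908832-73917494, GRCh38.p14), read 11.37, 11.32 and 11.34 on the shTIGD1 arrays in its brightest probe set, against 11.85, 11.82 and 11.80 on the shControl arrays. Every shTIGD1 array lay below every shControl array. PLAU averaged 11.34 ± 0.024 in shTIGD1 and 11.82 ± 0.025 in shControl (SD, n = 3 each), which is a log2 change of -0.48 with an SE of 0.034 and a 95% interval from -0.56 to -0.40. PLAU fell by 28.3% (limma adjusted p = 0.000595). An exact permutation test over the 6 arrays, two-sided, gave p = 0.1, the smallest value that 3 arrays against 3 allow. A change at least as large in either direction was found for 378 genes, 2.07% of those compared. In bulk RNA, fewer cells that express a gene and less RNA per cell cannot be told apart.

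Both dimmer PLAU probe sets fell too. The second read 10.35, 10.26 and 10.37 in shTIGD1, against 10.74, 10.68 and 10.63 in shControl, a log2 change of -0.36 (SE 0.05, limma adjusted p = 0.00428). The third read 8.59, 8.66 and 8.57 in shTIGD1, against 8.89, 8.84 and 8.83 in shControl, a log2 change of -0.25 (SE 0.043, limma adjusted p = 0.00905). The groups did not overlap in any of the 3 PLAU probe sets, and the brighter the probe set, the larger its change.

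PLAT, the gene of tissue-type activator, was higher. Its brightest probe set read 6.47, 6.30 and 6.46 on the shTIGD1 arrays, against 5.87, 5.78 and 5.68 on the shControl arrays. The lowest shTIGD1 array was above the highest shControl array. PLAT averaged 6.41 ± 0.094 in shTIGD1 and 5.78 ± 0.093 in shControl (SD, n = 3 each), which is a log2 change of 0.63 with an SE of 0.067 and a 95% interval from 0.47 to 0.79 (limma adjusted p = 0.00189).

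The PLAT signal was low. Its brightest probe set lay at the 42nd percentile of all genes by mean signal, and the 95th percentile of the markers of other cell types lay between its shTIGD1 and shControl means. RMA values carry no call of presence, so how much of this signal is background was not tested, and the log2 change is not given as a fold. All 7 PLAT probe sets were higher in shTIGD1 without overlap of the groups, beside 19.4% of all probe sets higher without overlap. Of the 7, 4 passed the test and 3 did not, with log2 changes from 0.20 to 0.63 and a median of 0.50. Of the 4, only the brightest kept its call with each array left out. The call of 11715847_x_at ended every time (highest limma adjusted p = 0.116). That of 11749809_a_at held only without shControl replicate 3 (adjusted p = 0.0061). That of 11754545_x_at ended without shTIGD1 replicate 2 (adjusted p = 0.057) or shControl replicate 3 (adjusted p = 0.0588).

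The PLAT probe sets differed in size of change and in spread. The dim probe set 11754545_x_at read 4.93, 4.59 and 4.47 in shTIGD1, against 4.18, 4.11 and 3.84 in shControl, a log2 change of 0.62 (SE 0.14, limma adjusted p = 0.0219). The probe set 11753829_a_at read 6.06, 6.13 and 6.01 in shTIGD1, against 5.98, 5.85 and 5.78 in shControl, a log2 change of 0.20 (SE 0.063, limma adjusted p = 0.0715). With the second brightest probe set in place of the brightest, the log2 change of the gene was 0.24 and the call ended (limma adjusted p = 0.0765). With the mean of all 7 probe sets it was 0.42 and passed (limma adjusted p = 0.00211).

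**Figure D2:**
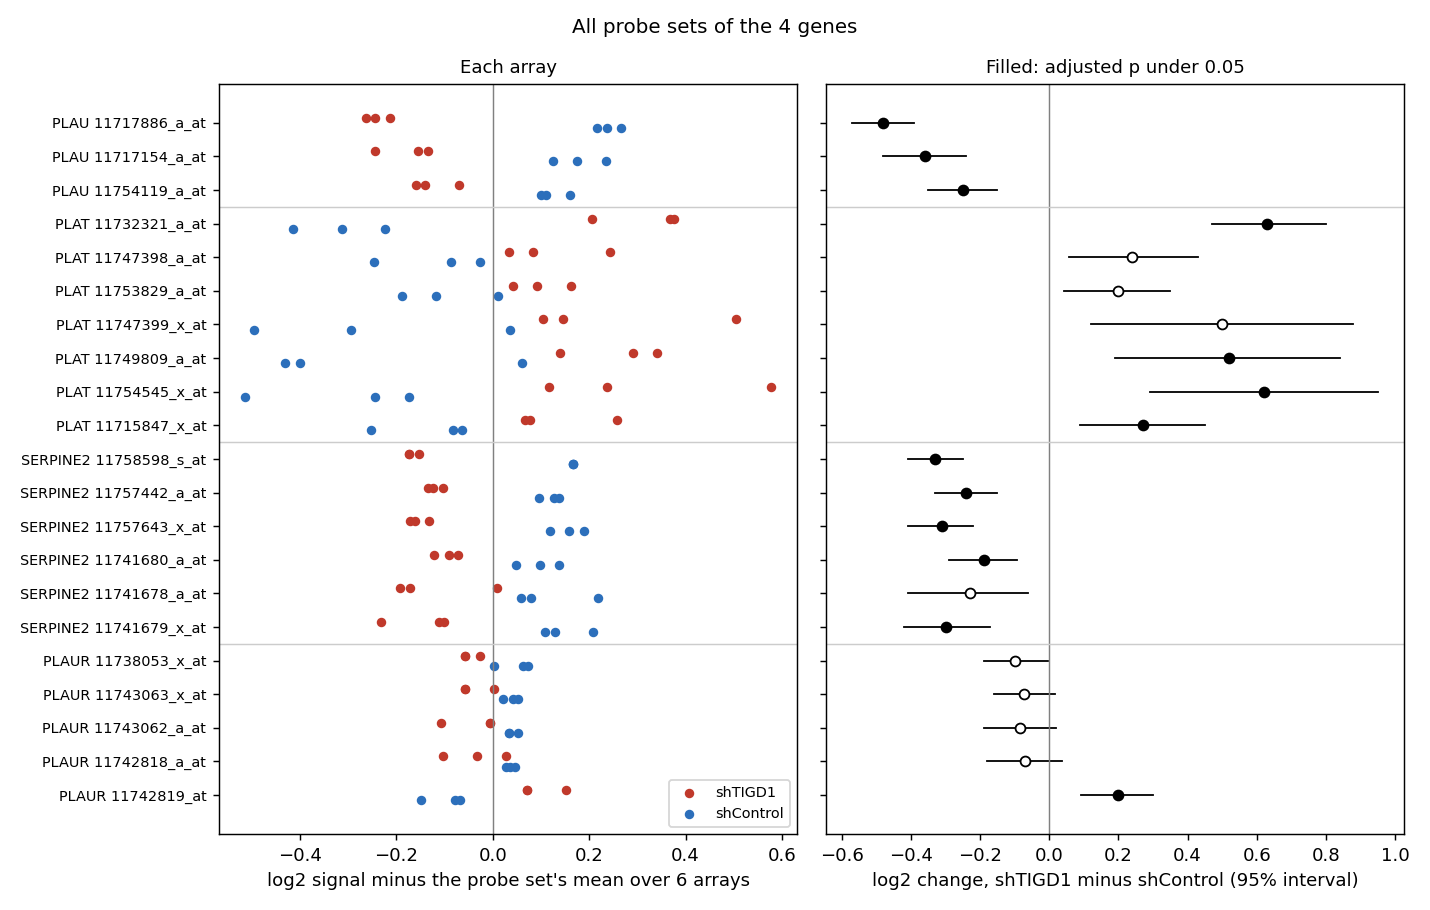
Left, each array's log2 signal minus the mean of that probe set over the 6 arrays, for all 21 probe sets and both groups; right, the log2 change (shTIGD1 minus shControl) with its 95% interval. On the right, all PLAU and SERPINE2 probe sets lie below 0 and all PLAT probe sets above it, and 1 of 5 PLAUR probe sets goes against the other 4.

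PLAUR, the gene of the urokinase receptor (chr19:43646095-43670169), read 9.62, 9.62 and 9.65 in shTIGD1 in its brightest probe set, against 9.68, 9.74 and 9.75 in shControl. The groups did not overlap but lay close together, averaging 9.63 ± 0.018 in shTIGD1 and 9.73 ± 0.039 in shControl (SD, n = 3 each). The log2 change was -0.10 (SE 0.036, 95% interval -0.18 to -0.011), and the limma adjusted p of 0.10 missed the threshold. It passed as lower where only genes with a mean signal of at least 5 (limma adjusted p = 0.0493) or 6 (limma adjusted p = 0.0343) were tested, and with a trended and robust variance (limma adjusted p = 0.0249).

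The PLAUR probe sets disagreed. The dimmest, 11742819_at, read 7.91, 7.91 and 7.99 in shTIGD1, against 7.76, 7.69 and 7.77 in shControl, and passed as higher (log2 change 0.20, SE 0.044, limma adjusted p = 0.0224). The other 4 had log2 changes from -0.10 to -0.069, and none of them passed. Relative to the mean of those 4 on the same array, 11742819_at was 0.28 higher in shTIGD1 than in shControl on the log2 scale (exact permutation p = 0.1, two-sided, the smallest possible). The call of 11742819_at ended when any 1 of 5 of the 6 arrays was left out, with limma adjusted p from 0.0512 to 0.0712, and held at 0.0461 without shControl replicate 3. No direction is given for PLAUR.

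SERPINE2, the gene of protease nexin-1 (chr2:223975045-224039286), read 10.86, 10.84 and 10.84 in shTIGD1, against 11.18 on each of the 3 shControl arrays. The groups were far apart for their spread, averaging 10.85 ± 0.012 in shTIGD1 and 11.18 ± 0.0038 in shControl (SD, n = 3 each). The log2 change was -0.33 with an SE of 0.03 and a 95% interval from -0.40 to -0.26, and SERPINE2 fell by 20.4% (limma adjusted p = 0.0013). A change at least as large in either direction was found for 1172 genes (6.42%). Against a change of 1.2-fold in place of 0, SERPINE2 did not pass (limma adjusted p = 0.815), while PLAU (adjusted p = 0.0248) and PLAT (adjusted p = 0.0427) did.

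The name of the brightest SERPINE2 probe set ends in _s_at, which on this array type marks probes shared by transcripts of different genes. The ending _x_at marks sets in which some probes match other sequences, and _a_at marks transcripts of 1 gene. The brightest _a_at set read 9.63, 9.66 and 9.64 in shTIGD1, against 9.86, 9.90 and 9.89 in shControl, a log2 change of -0.24 (SE 0.037, limma adjusted p = 0.00573). All 6 SERPINE2 probe sets were lower without overlap of the groups, beside 21.5% of all probe sets, and 5 of them passed. The remaining set, 11741678_a_at, is dim and had a log2 change of -0.23 (limma adjusted p = 0.0622). With an array left out, the call of 11741680_a_at (-0.19) held only without shControl replicate 3 (limma adjusted p = 0.0306).

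The arrays have nearly the same median signal, 6.27 to 6.28, and on this scale the spiked controls differ between the groups. The 9 hybridization control probe sets averaged 11.22 to 11.25 on the shTIGD1 arrays, against 11.41 to 11.42 on the shControl arrays. The 12 poly-A control probe sets averaged 6.83 to 6.95 in shTIGD1, against 7.13 to 7.30 in shControl. Levelling the arrays on these controls adds 1 amount to every gene of an array. The median log2 change of all genes was -0.036 as deposited, 0.14 with hybridization controls and 0.29 with poly-A controls.

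With hybridization control scaling, PLAU (-0.30, limma adjusted p = 0.00118), SERPINE2 (-0.15, adjusted p = 0.0104) and PLAT (0.81, adjusted p = 0.000403) kept their calls. With poly-A control scaling PLAT was at 0.95 (limma adjusted p = 3.29e-06), PLAU did not pass at -0.16 (adjusted p = 0.0941) and SERPINE2 was at -0.0078 (adjusted p = 0.932). PLAUR turned to 0.081 with hybridization controls and to 0.22 with poly-A controls, where it passed as higher (limma adjusted p = 0.0282). Relative to the median of all genes, the log2 changes were -0.44 for PLAU, -0.29 for SERPINE2, -0.061 for PLAUR and 0.67 for PLAT as deposited and under both control scalings.

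**Figure D3:**
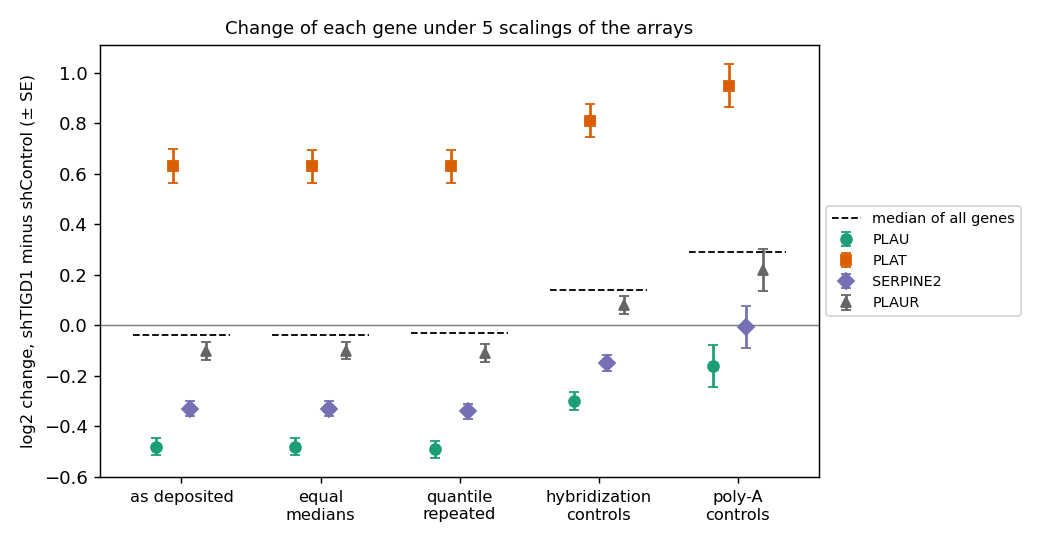
Log2 change (shTIGD1 minus shControl) of the 4 genes under different scalings of the arrays, beside the median of all genes. PLAT stays above 0 and PLAU below 0, SERPINE2 comes to -0.0078 with poly-A controls, and PLAUR changes side.

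In the wider plasmin system, 33 genes were measured, and 2 passed as higher and 11 as lower (limma), beside 9.81% and 14.0% of all genes. Levelled on hybridization controls 12 passed as higher and 3 as lower, and on poly-A controls 17 and 0. Of all 18244 genes, 7437 passed as higher and 522 as lower on hybridization controls, and 12435 and 97 on poly-A controls. The median log2 change was -0.11 beside -0.036 for all genes, and 0.069 and 0.21 under those scalings. It was -0.011 among the 22 genes with a mean signal of at least 5, and -0.066 without shTIGD1 replicate 1. SERPINI1, the gene of neuroserpin, an inhibitor of tissue-type activator, read 9.18, 9.20 and 9.21 in shTIGD1, against 8.65, 8.61 and 8.57 in shControl. The groups lay well apart, and SERPINI1 rose by 0.59 on the log2 scale (SE 0.035, limma adjusted p = 0.000359). The other gene that passed as higher was SPINT2, a Kunitz-type protease inhibitor, at 0.17 (limma adjusted p = 0.0161), named after its value was seen. Its call ended without shTIGD1 replicate 1 (adjusted p = 0.0534), without shControl replicate 3 (adjusted p = 0.05) and with the replicate block (adjusted p = 0.0611).

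Integrin subunits bind matrix proteins such as vitronectin and fibronectin, and some associate with the urokinase receptor. ITGB5 fell by 0.41 (SE 0.033, limma adjusted p = 0.000879), ITGA5 by 0.35 (adjusted p = 0.00661) and the dim ITGB3 by 0.32 (adjusted p = 0.014), on the log2 scale. With poly-A control scaling ITGB5 (-0.088) and ITGA5 (-0.03) did not pass and ITGB3 was at 0.0044. The call of ITGB3 also ended with its second brightest probe set (-0.013). The integrin genes ITGA3 (-0.28, limma adjusted p = 0.00387) and the dim ITGAM (-0.19, adjusted p = 0.0405), named after their values were seen, also passed as lower. With hybridization control scaling neither passed (ITGA3 at -0.10, ITGAM at -0.01). They were at 0.043 and 0.13 with poly-A control scaling. The call of ITGAM also ended with its second brightest probe set (-0.021). ITGAV, the alpha subunit that pairs with both ITGB5 and ITGB3 proteins, named after its values were seen, did not pass in its brightest probe set (-0.063, limma adjusted p = 0.66), but 4 of its 5 probe sets passed as higher, the highest at 0.43. MRC2, a collagen receptor that associates with PLAUR, fell by 0.31 (limma adjusted p = 0.0016) in its brightest probe set and passed as lower in all 4, but was at 0.014 with poly-A control scaling.

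The 2 brightest genes of the plasmin system did not pass. ANXA2, a surface binding partner of plasminogen and of tissue-type activator, had a log2 change of 0.007 (limma adjusted p = 0.901), and ITGB1, an integrin subunit, one of 0.037 (adjusted p = 0.476). Of the 5 ITGB1 probe sets, 1 passed as higher, at 0.21. Other genes of the list passed as lower, named after their values were seen. They were F12 (-0.26, limma adjusted p = 0.00276), LRP1 (-0.25, adjusted p = 0.0278), the dim HGFAC (-0.29, adjusted p = 0.029), S100A10 (-0.15, adjusted p = 0.042) and IGF2R (-0.12, adjusted p = 0.0406). With hybridization control scaling none of them passed, and with poly-A control scaling all were positive. PLG, the gene of plasminogen, named after its value was seen, averaged 4.16 ± 0.12 in shTIGD1 and 4.07 ± 0.18 in shControl (SD, n = 3 each), below the median of the markers of other cell types.

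**Figure D4:**
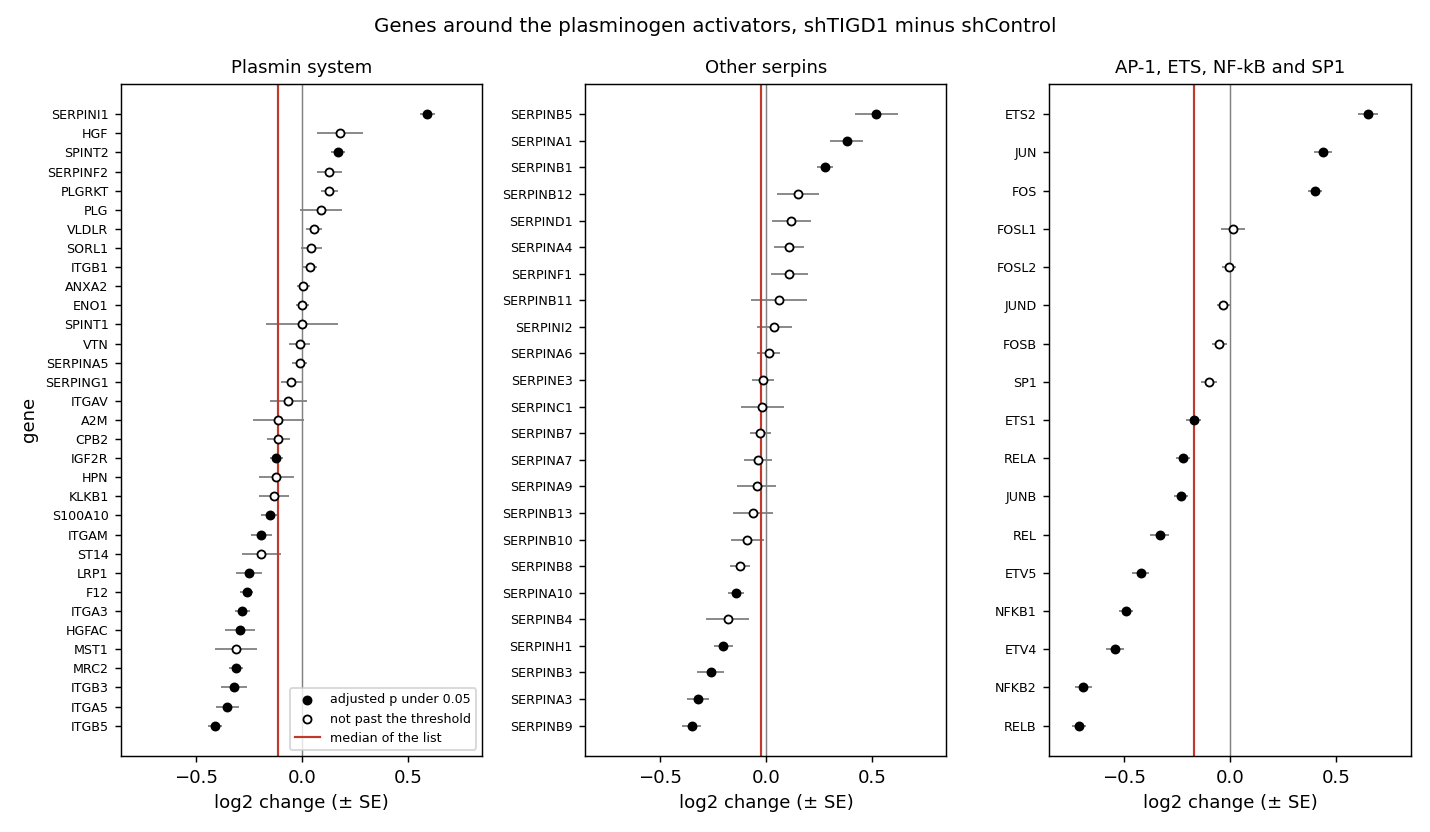
Log2 change (shTIGD1 minus shControl) of 33 genes of the plasmin system, 24 other serpins and 17 transcription factor genes, sorted within each panel. SERPINI1, at 0.59, is the highest of the plasmin system, and RELB, at -0.71, is the lowest of the transcription factors.

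Of 24 other serpins, 3 passed as higher and 5 as lower (limma), beside 9.81% and 14.0% of all genes. Levelled on hybridization controls 10 passed as higher and 2 as lower, beside 7437 and 522 of all 18244 genes. On poly-A controls 17 passed as higher and 0 as lower, beside 12435 and 97 of all genes. The median log2 change was -0.021 as deposited, 0.16 when levelled on hybridization controls and 0.30 on poly-A controls. SERPINB5, known as maspin, rose by 0.52 (SE 0.10, limma adjusted p = 0.0153) at a dim signal of 4.53 in shTIGD1 and 4.02 in shControl. Its call ended without shTIGD1 replicate 1 (adjusted p = 0.053) or shTIGD1 replicate 2 (adjusted p = 0.0557), and its 3 probe sets ran from -0.034 to 0.86, with 2 called higher. SERPINB1, an inhibitor of neutrophil proteases, rose by 0.28 (adjusted p = 0.00415). SERPINB9, the inhibitor of granzyme B, fell by 0.35 (limma adjusted p = 0.00347) and SERPINA3, antichymotrypsin, by 0.32 (adjusted p = 0.00638). Neither passed with poly-A control scaling, and SERPINB9 was at -0.068 with the mean of its probe sets (adjusted p = 0.383). SERPINH1, a collagen chaperone, passed as lower at -0.20 (limma adjusted p = 0.0244), but not when any 1 of 5 of the 6 arrays was left out (adjusted p from 0.0565 to 0.0747), with hybridization control scaling (-0.025) or with its second brightest probe set (adjusted p = 0.0593). It was at 0.12 with poly-A control scaling. The others that passed as lower, named after their values were seen, were the dim SERPINB3, at -0.26 (limma adjusted p = 0.0314), and SERPINA10, at -0.14 (adjusted p = 0.0435). The call of SERPINB3 ended when any 1 of 5 of the 6 arrays was left out, and it was at 0.066 with poly-A control scaling. That of SERPINA10 ended with each of the 6 arrays left out, and it was at -0.0074 in its second brightest probe set and at 0.036 with hybridization control scaling. SERPINA1, the gene of antitrypsin, passed as higher (0.38, limma adjusted p = 0.0156) in a set ending in _s_at. Its brightest probe set of another kind had a log2 change of -0.10 (adjusted p = 0.575), so no direction is given.

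AP-1, ETS and NF-kB factors and SP1 are known to act on PLAU or PLAUR, and of 17 genes of these factors 3 passed as higher and 9 as lower (limma), beside 9.81% and 14.0% of all genes. Levelled on hybridization controls 7 passed as higher and 6 as lower, beside 7437 and 522 of all 18244 genes. On poly-A controls 8 passed as higher and 3 as lower, beside 12435 and 97 of all genes. The median log2 change was -0.17 as deposited, 0.0043 on hybridization controls and 0.15 on poly-A controls. RELB, an NF-kB subunit, read 8.87, 8.82 and 8.87 in shTIGD1, against 9.58, 9.54 and 9.57 in shControl, and fell by 0.71 (SE 0.034, limma adjusted p = 0.000231). The other NF-kB genes of the list fell by 0.69 (NFKB2, limma adjusted p = 0.000317), 0.49 (NFKB1, adjusted p = 0.000595), 0.33 (REL, adjusted p = 0.00405) and 0.22 (RELA, adjusted p = 0.00572, named after its value was seen). With poly-A control scaling NFKB1 (-0.17) and REL (-0.0089) did not pass and RELA was at 0.10 (adjusted p = 0.303). RELA did not pass with hybridization control scaling either (-0.045, limma adjusted p = 0.363), nor with its second brightest probe set (-0.14, adjusted p = 0.0962).

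The PEA3 factor genes ETV4 and ETV5 fell by 0.54 (limma adjusted p = 0.000776) and 0.42 (adjusted p = 0.00131), and ETV5 did not pass with poly-A control scaling. The AP-1 genes FOS and JUN rose by 0.40 (limma adjusted p = 0.000908) and 0.44 (adjusted p = 0.00136), and the ETS gene ETS2 by 0.65 (adjusted p = 0.000636). Other genes of both families passed as lower, named after their values were seen: the AP-1 gene JUNB at -0.23 (limma adjusted p = 0.00425) and the ETS gene ETS1 at -0.17 (adjusted p = 0.0179). With poly-A control scaling JUNB was at 0.089 and ETS1 at 0.15. With hybridization control scaling neither passed (JUNB at -0.055, ETS1 at 0.0043). ETS1 also did not pass with its second brightest probe set (-0.026), or when any 1 of 4 of the 6 arrays was left out. FOSL2, another AP-1 gene and among the brightest of the list, had a log2 change of -0.0064 (limma adjusted p = 0.914). Its 5 probe sets disagreed, from -0.22 to 0.27, and 1 passed as higher and 1 as lower.

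The genes whose values over the 6 arrays ran most like those of a member were sought among the genes with a range of at least 0.5 on the log2 scale, 1672 for PLAU and PLAT and 1673 for SERPINE2. For PLAU they were UGCG, which makes glucosylceramide (Pearson 0.9996), and DDX55, an RNA helicase gene (0.9992). For PLAT they were PARM1 (0.9975) and CCNC, the cyclin C gene (0.993), and for SERPINE2 they were TNFAIP2 and RAP1A (0.9996 each). The arrays form 2 groups, so the measure follows mainly the difference between them. The 4 probe sets of RAP1A disagreed, with log2 changes from -1.66 to 0.43, and 3 passed as higher and 1 as lower. Of the 3 PARM1 probe sets, 1 passed as higher, and their log2 changes ran from 0.011 to 0.42.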

How the data were processed

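RNA of 6 samples was hybridised to 1-colour Affymetrix arrays. The authors deposited a log2 signal for each probe set, and per the submitters' processing notes the tools were GCOS and RMA; no version of either is given in the sources used here. That the logs are to base 2 was judged from their range. Of 49395 probe sets, 102 controls were left out; 45278 of the rest carry 1 gene symbol, 1333 several and 2682 none.

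The brightest probe set of a gene, by its mean over the 6 arrays, stood for the gene. shTIGD1 was compared with shControl with limma 3.58.1 (lmFit and eBayes) in R 4.3.3, over 18244 genes and separately over 49293 probe sets, with Benjamini-Hochberg adjustment over all of them and a threshold of 0.05. The code was tested on simulated data. Motifs were searched with Python 3.11.15 in RefSeq promoter windows.

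The members and lists were chosen with earlier results of these data known. Genes named from the lists passed the threshold at an absolute log2 change of at least 0.3, or were the 2 brightest of their list, and the 2 genes most like each called member were named. Alternatives covered the choice of probe set, scaling, a minimum signal, the variance model, a 1.2-fold threshold, each array left out and the replicate number as a block. The numbers were not taken to pair the samples, since same-numbered arrays had correlations of deviations of -0.032, -0.133 and -0.094. No array was a copy of another: pairs of arrays held equal values in 112 to 184 of the 49395 probe sets.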

Additional observations from a re-analysis of the deposited data

How the results depend on the processing

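The calls of PLAU, PLAT and SERPINE2 held with each array left out (highest limma adjusted p 0.00552, 0.0113 and 0.00924), and 3 member genes passed each time. Genes past the threshold, 4340 as reported, numbered 7959 when levelled on hybridization controls and 12532 on poly-A controls. The share of calls that were higher was 41.2% as reported, 93.4% on hybridization controls and 99.2% on poly-A controls. It was 50.9% with the second brightest probe set and 66.8% against a 1.2-fold change. Against a 1.2-fold change 262 genes passed, and 2741 to 3386 with an array left out. Probe sets past the threshold, 10867 as reported, numbered 21843 on hybridization controls, 34794 on poly-A controls, 756 against a 1.2-fold change and 6676 to 8628 with an array left out. Member probe sets past it, 13 as reported, numbered 2 against a 1.2-fold change and 8 to 11 with an array left out, 8 being without shTIGD1 replicate 2. The labels do not say whether the replicate numbers pair the samples. With the replicate number as a block, 2391 genes, 6462 probe sets, 8 plasmin system genes and 4 other serpins passed.

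Plasmin system genes, 13 as reported, numbered 1 against a 1.2-fold change and 7 to 9 with an array left out. Other serpins, 8 as reported, numbered 5 with the second brightest probe set, 17 with poly-A control scaling (17 higher and 0 lower), 4 at a mean signal of at least 5 and 4 at 6, 0 against a 1.2-fold change (limma), and 3 to 7 with an array left out. Of the transcription factor genes, 12 as reported, 5 passed against a 1.2-fold change.

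With poly-A control scaling the log2 change was -0.16 for PLAU, -0.0078 for SERPINE2, 0.22 for PLAUR and 0.27 for TIGD1 (limma adjusted p = 0.0121). With hybridization control scaling it was 0.081 for PLAUR and 0.12 for TIGD1. PLAT was at 0.24 with its second brightest probe set. SERPINE2 stayed at -0.33 but did not pass against a 1.2-fold change. PLAUR stayed at -0.10 and passed at a mean signal of at least 5 or 6, where fewer genes are tested, and with a trended and robust variance. Single probe sets turned positive with poly-A control scaling: 11754119_a_at of PLAU (0.074), 11738053_x_at, 11743063_x_at, 11743062_a_at and 11742818_a_at of PLAUR (0.22, 0.25, 0.24 and 0.25), and 11757442_a_at, 11757643_x_at, 11741680_a_at, 11741678_a_at and 11741679_x_at of SERPINE2 (0.079, 0.0081, 0.13, 0.087 and 0.026). With hybridization control scaling the same PLAUR sets were at 0.081, 0.10, 0.094 and 0.11. Apart from the construction named, the cause was not tested. The setting without probe sets ending in _x_at and _s_at was chosen after seeing the data, and gave -0.24 for SERPINE2 (limma adjusted p = 0.00481).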
